A study of Mus musculus with 62 samples.

Results

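The data described here are the change over culture time in the effect of a drug combination on gene expression. In cultured mouse bladder cancer cells, the effect at 72 h (combination minus DMSO) had the effect at 24 h subtracted from it, gene by gene. The 14 libraries of the combination experiment that carry this comparison were taken by their labels, out of 62 libraries in 15 groups in the series. They were 4 combination libraries and 3 DMSO libraries at 72 h, and 4 combination libraries and 3 DMSO libraries at 24 h. All came from BBN963 cells, one mouse line labelled as basal bladder cancer with the genotype C57bl/6 WT. The treated cells received Rosiglitazone+Trametinib and the controls received DMSO, the solvent, at doses not given in the sources used here. Poly-A RNA was sequenced. The labels do not say that replicates were separate cultures, so the p-values measure only the spread between these libraries, which may be technical.

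Rosiglitazone binds and activates PPARG, a nuclear receptor that switches on genes of lipid storage and, in the urothelium, of luminal differentiation. Trametinib blocks the kinases MEK1 and MEK2, which pass growth factor signals to ERK. ERK drives entry into the cell cycle and also switches on its own inhibitors, such as the Dusp phosphatases and the Sprouty and Spred proteins. Cells match sterol synthesis to need through the SREBP factors, which Insig proteins hold in the endoplasmic reticulum when sterols are plentiful. Id proteins block basic helix-loop-helix factors and are classical targets of BMP and SMAD signalling.

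The values were size-factor-normalised read counts, log2(value + 1) was fitted with limma in 1 model over the 4 groups, and 13640 genes passed a filter of a value of at least 10 in at least 3 libraries. A gene was called at a Benjamini-Hochberg adjusted p below 0.05. A difference of 1 on the log2 scale is a 2-fold change. Positive differences mean a more positive effect at 72 h than at 24 h, so a negative effect that shrank also counts as higher. Depth per library was 5.2-14.82 M reads in combination cells and 8.58-29.45 M in DMSO cells at 72 h, and 4.64-16.08 M in combination cells and 5.23-9.09 M in DMSO cells at 24 h. The first principal component held 60.7% of the variance.

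The label of the cells was set against marker genes. The epithelial genes Epcam, Cdh1, Krt8 and Krt18 were expressed in all 14 libraries, and so was the basal keratin Krt14. Krt5 and Trp63, which define basal urothelium, were near 0, with highest values over all libraries of 2.03 for Krt5 and 9.24 for Trp63. Of 7 fibroblast markers 1 passed the filter, and Lum was at 0 in every library. No endothelial marker and no smooth muscle marker passed, of 4 each. Of 7 immune markers 2 passed, and their list summed to 219-230 in combination cells at 72 h and 43.3-49.4 in DMSO cells at 72 h, and to 164-209 in combination cells at 24 h and 38.1-41.5 in DMSO cells at 24 h. Most of that sum was Cd68, a lysosomal protein of macrophages and other cells, with at least 205 in combination cells and at most 32.1 in DMSO cells at 72 h, while Ptprc, which marks leukocytes in general, reached at most 2.03 in any library. Its part in the results was not tested. In bulk libraries, fewer cells of a kind and less RNA per cell cannot be told apart.

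The combination effect differed between the times for 4654 genes, 34.1% of those tested. Of these, 2325 (17.0%) had a higher effect at 72 h and 2329 (17.1%) a lower one. The effect itself was called for 9874 genes (72.4%) at 72 h and 8067 (59.1%) at 24 h. Its median size over all genes was 0.652 at 72 h and 0.415 at 24 h. For 3280 of the 4654 genes (70.5%) the effect was called at both times in 1 direction and was larger in size at 72 h. A further 963 (20.7%) had an effect called at 72 h alone, 216 (4.64%) at 24 h alone, 63 (1.35%) had the same direction but a smaller size at 72 h, and 15 (0.322%) had neither effect called. The 2 effects had opposite signs, both called, for 117 genes (2.51%). In all, the effect was larger in size at 72 h for 4325 of the 4654 genes (92.9%). The difference exceeded 1 in size for 1058 genes, 380 of them higher and 678 lower at 72 h. It exceeded 2 for 167 genes, 38 higher and 129 lower.

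**Figure D1:**
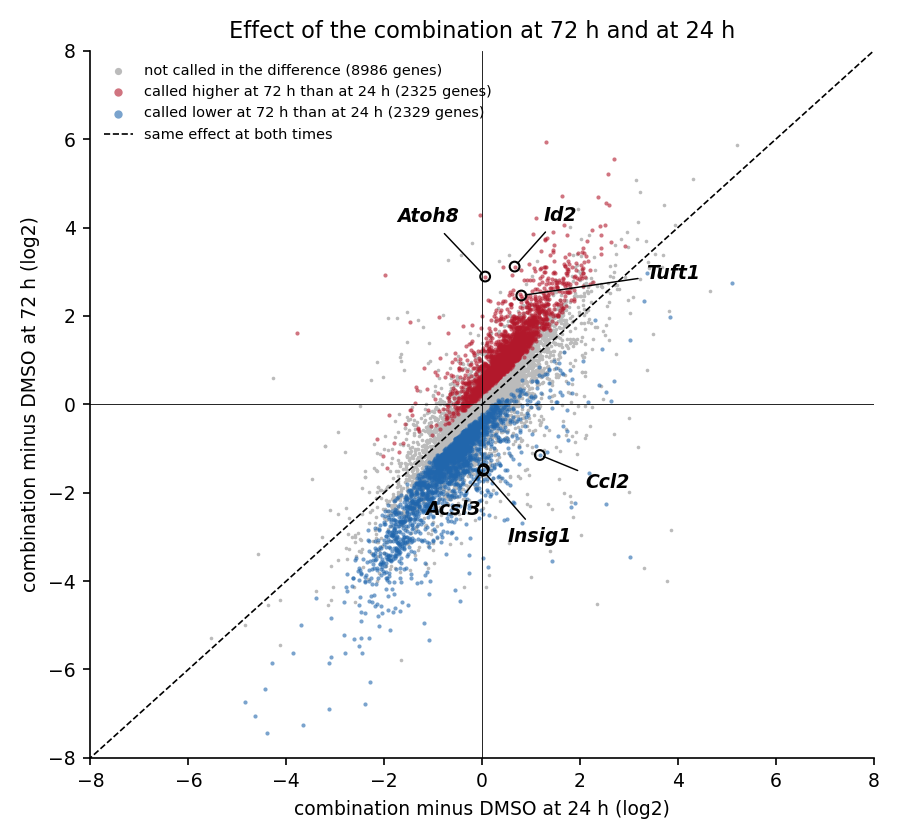
Combination effect at 72 h (vertical axis) against that at 24 h (horizontal axis), both as combination minus DMSO on the log2 scale, with 1 point per tested gene and a diagonal where the effects are equal. Red points are the 2325 genes with a called higher effect at 72 h, blue points the 2329 with a called lower one, and grey points the other genes. Acsl3, Insig1 and Atoh8 lie near 0 on the horizontal axis and far from 0 on the vertical one.

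A difference between effects can come from the treated cells, from the control cells or from both, so each level was followed from 24 h to 72 h. The combination level moved between the times for 6157 of all genes tested (45.1%), and the DMSO level for 3396 (24.9%). Of all 13640 genes tested, the combination level rose for 2927 and fell for 3230, and the DMSO level rose for 1509 and fell for 1887. The counts of moves given below for gene lists are to be set against these. Among the 4654 genes, 2461 (52.9%) had a called move in the combination level alone and 888 (19.1%) in the DMSO level alone. Both levels moved for 1047 genes (22.5%), in opposite directions for 758 and in the same direction for 289, and neither move was called for 258 (5.54%). By size alone, without a test, the combination level moved further for 3077 genes (66.1%) and the DMSO level for 1577 (33.9%). With 1 library left out at a time, the DMSO-alone class held between 625 genes (without DMSO replicate 2 at 72 h) and 960 (without DMSO replicate 3 at 72 h).

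**Figure D2:**
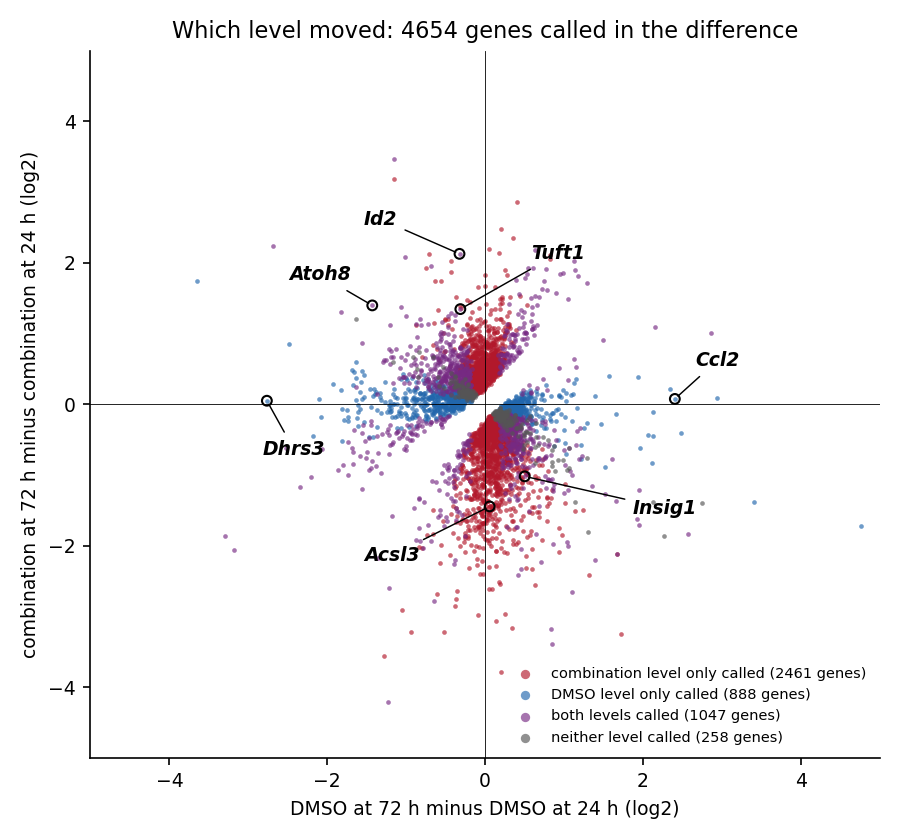
Change of the combination level between 24 h and 72 h (vertical axis, log2) against that of the DMSO level (horizontal axis, log2) for the 4654 genes whose effect differed between times. Colours give the class: combination level alone (2461), DMSO level alone (888), both (1047) and neither (258). Dhrs3 and Ccl2 lie along the horizontal axis, Acsl3 lies along the vertical one, and Atoh8 and Insig1 lie between them.

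The classes held genes of different kinds. Dhrs3, a retinaldehyde reductase of vitamin A metabolism, moved in the controls. It had 712, 653, 608 and 593 in combination cells and 39.2, 42.1 and 48.3 in DMSO cells at 72 h, and 690, 591, 564 and 633 in combination cells and 320, 304 and 273 in DMSO cells at 24 h. The treated libraries of the 2 times overlapped, and the control libraries did not. The DMSO level fell by 2.76 ± 0.10 (SE), the combination level changed by 0.05 ± 0.09, and the effect rose by 2.81 ± 0.13 (limma adjusted p = 1.98e-10). Flrt2, a membrane protein of cell adhesion (difference 1.67), and Col4a5, a basement membrane collagen (1.20), were further genes of that class. Lmnb1, which encodes lamin B1 of the nuclear envelope, moved in the treated cells alone. It had 164, 155, 170 and 164 in combination cells and 1971, 2004 and 1994 in DMSO cells at 72 h, and 571, 607, 608 and 713 in combination cells and 1908, 1930 and 2033 in DMSO cells at 24 h. Its 2 control groups overlapped, and its difference was -1.95 ± 0.10 (adjusted p = 2.59e-10). Ank, a phosphate and nucleotide exporter (1.86), and Ckap2l, a spindle protein (-2.02), moved in both levels. Mcrip1 (0.58), Fbxo17 (-0.92), Alg12 (0.48) and Smpd2 (0.61) were called for the difference with neither move called.

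5 genes were followed as markers of the comparison, and their levels moved in different ways. Acsl3, an acyl-CoA synthetase that readies fatty acids for lipid droplets and phospholipids, lies at chr1:78657825-78707743 on the plus strand (GRCm38, as for all gene positions here). It had 344, 349, 369 and 363 in combination cells and 1007, 927 and 1023 in DMSO cells at 72 h. At 24 h it had 986, 966, 958 and 970 in combination cells and 901, 978 and 961 in DMSO cells. Combination cells at 72 h stood below every other library, and the other 3 groups overlapped. The effect was -1.47 ± 0.06 at 72 h and 0.04 ± 0.06 at 24 h (not called), a difference of -1.50 ± 0.08 (SE; limma adjusted p = 7.11e-10). The combination level fell by 1.44 between the times and the DMSO level changed by 0.06 (adjusted p = 0.53), so the treated level moved.

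Insig1, the sterol-regulated anchor of SREBP, lies at chr5:28071363-28078662 on the plus strand. It had 422, 445, 415 and 411 in combination cells and 1227, 1215 and 1160 in DMSO cells at 72 h. At 24 h the values were 793, 861, 844 and 941 in combination cells and 861, 842 and 839 in DMSO cells. Here both levels moved, apart from each other. The combination level fell by 1.02, the DMSO level rose by 0.50, and the effect was -1.50 at 72 h against 0.02 at 24 h (not called), a difference of -1.52 ± 0.09 (adjusted p = 1.22e-09).

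Id2, an Id protein, lies at chr12:25093799-25097140 on the minus strand. Its values were 1322, 1126, 1284 and 1329 in combination cells and 153, 155 and 128 in DMSO cells at 72 h, and 310, 313, 285 and 249 in combination cells and 183, 199 and 164 in DMSO cells at 24 h. Treated and control libraries stood apart at both times, further at 72 h. The effect was 3.12 at 72 h and 0.66 at 24 h, a difference of 2.45 ± 0.14 (adjusted p = 1.22e-09). The treated level carried most of it, with a rise of 2.13 beside a DMSO level that fell by 0.32 (adjusted p = 0.0323).

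Atoh8, a basic helix-loop-helix factor, lies at chr6:72206177-72235577 on the minus strand. It had 150, 153, 177 and 191 in combination cells and 22.7, 17.7 and 25.1 in DMSO cells at 72 h. At 24 h it had 66.0, 59.9, 56.7 and 68.8 in combination cells and 64.6, 58.1 and 57.5 in DMSO cells, and these 2 groups overlapped. The treated and control levels moved by about the same size in opposite directions, with a rise of 1.40 in combination cells and a DMSO level that fell by 1.43. The difference of effects was 2.83 ± 0.20 (adjusted p = 1.28e-08). Tuft1, which encodes tuftelin, first described in tooth enamel, lies at chr3:94612757-94658872 on the minus strand. It had 2921, 2506, 2352 and 2271 in combination cells and 446, 470 and 445 in DMSO cells at 72 h, and 988, 1000, 1016 and 931 in combination cells and 572, 599 and 522 in DMSO cells at 24 h. Its effect was 2.46 at 72 h and 0.80 at 24 h, a difference of 1.66 ± 0.11 (adjusted p = 4.75e-09), with a rise of 1.35 in the treated level and a DMSO level that fell by 0.31.

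**Figure D3:**
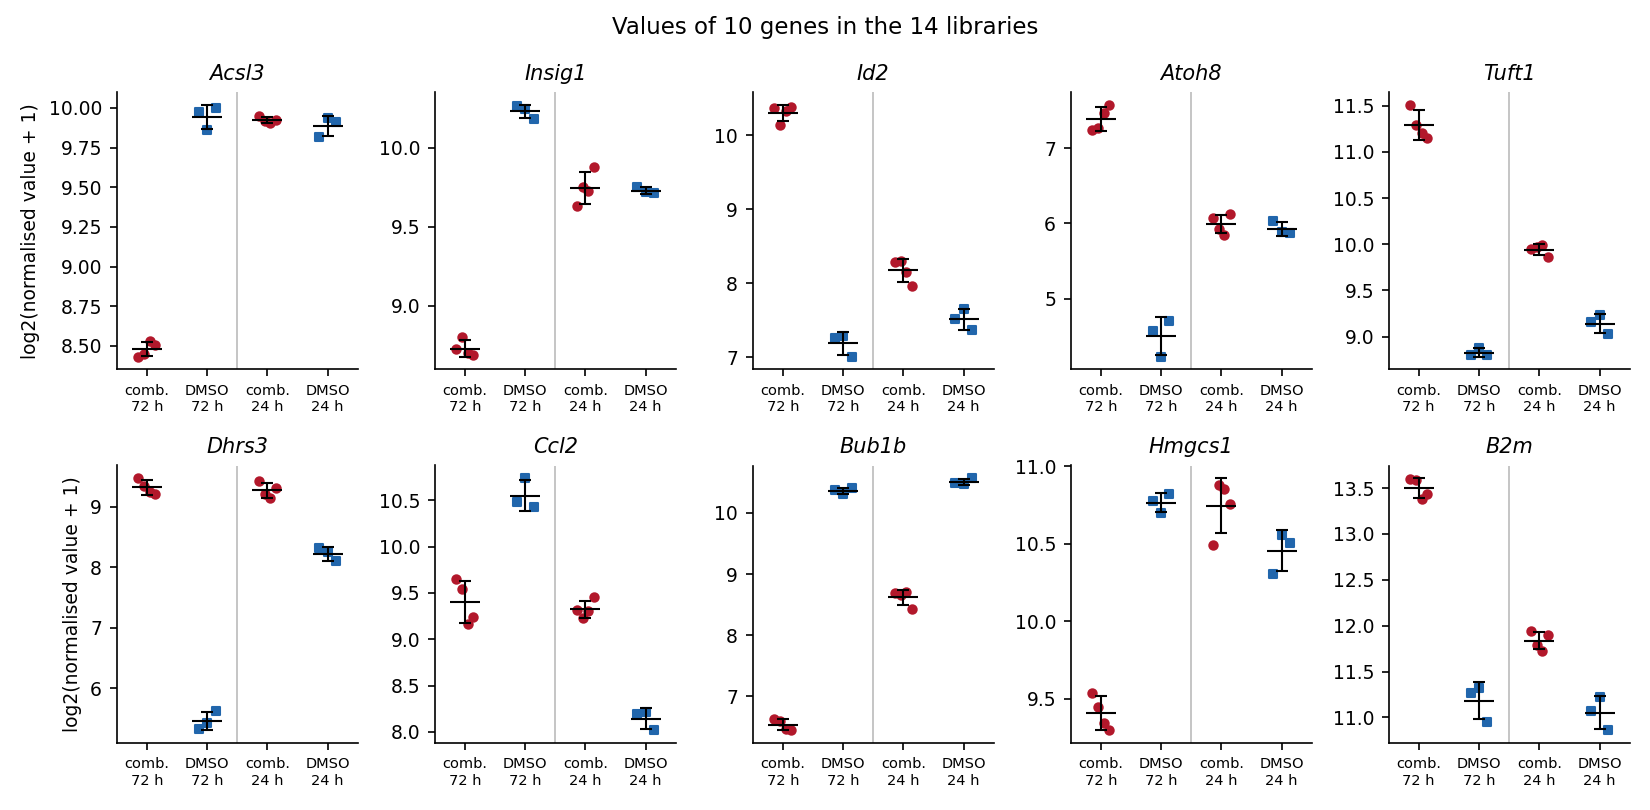
Level of 10 genes as log2(normalised value + 1) in each of the 14 libraries (vertical axis, a separate scale per gene), by group, with bars for the mean ± SD. In Acsl3 the combination cells at 72 h stand apart from the other 3 groups, while in Dhrs3 and Ccl2 the combination groups of the 2 times overlap and the DMSO groups stand apart.

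Genes of cholesterol synthesis had lower effects at 72 h. Of 21 list members tested, 18 were called lower and 0 higher, with a median difference of -0.96 against -0.02 over all genes. The shares to set such list counts against are the 17.0% higher and 17.1% lower of all genes tested. The median effect was -0.86 at 72 h and 0.08 at 24 h. At 24 h, 7 members were called higher and 4 lower in combination cells. Of all 13640 genes tested, 4124 were called higher and 3943 lower at 24 h, so the list did not stand out at that time. Both sides moved: the combination level fell for 16 members and rose for 2, while the DMSO level rose for 16 and fell for 0. The mean log2 level of the list was 8.88-9.05 in combination cells and 9.79-9.91 in DMSO cells at 72 h, and 9.57-9.60 in combination cells and 9.49-9.53 in DMSO cells at 24 h. Hmgcs1, which makes HMG-CoA, had 743, 698, 651 and 629 in combination cells and 1754, 1659 and 1808 in DMSO cells at 72 h, and 1441, 1884, 1851 and 1732 in combination cells and 1265, 1506 and 1453 in DMSO cells at 24 h, where the groups overlapped. Its effect changed sign, with -1.36 ± 0.09 at 72 h and 0.29 ± 0.09 at 24 h, a difference of -1.65 ± 0.13 (adjusted p = 2.92e-08). Idi1, which interconverts the isoprene units, had a difference of -1.82 ± 0.10 (adjusted p = 8.27e-10), with 592-668 in combination cells and 2320-2391 in DMSO cells at 72 h. Tm7sf2 (-0.21), Ebp (0.21) and Dhcr7 (0.09) were the members not called, and are named after their values were seen.

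The promoter of Hmgcs1 is shown because SREBP is known to bind this class of gene. RefSeq promoters of GRCm38.p6 run from 250 bases before the start of the gene to 50 bases after it, and are printed 5′ to 3′ on the strand of the gene. The Hmgcs1 window is chr13:119690101-119690400 on the plus strand, and capitals mark the sterol regulatory element core, TCACNCCAC, at position 114 from the 5′ end.
Hmgcs1: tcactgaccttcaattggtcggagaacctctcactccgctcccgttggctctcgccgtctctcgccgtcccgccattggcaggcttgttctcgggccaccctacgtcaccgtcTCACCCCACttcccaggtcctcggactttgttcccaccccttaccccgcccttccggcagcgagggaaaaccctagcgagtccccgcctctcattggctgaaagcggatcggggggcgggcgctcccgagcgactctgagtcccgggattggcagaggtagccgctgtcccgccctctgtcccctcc
Both strands were searched for every motif here. 13 of the 18 called cholesterol genes had a promoter in the table, 14 windows in all. The core was found in 1 of these 14 (7.14%), against 1.24% of all 32817 promoters, so its absence from the other windows says only that these letters were not there.

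Genes of sterol uptake and sensing did not move as 1 group, with 21 of 22 members tested, 6 called higher (28.6%), 8 lower (38.1%) and a median of 0.07. Stard4, a cholesterol carrier, had 301, 280, 258 and 284 in combination cells and 820, 734 and 807 in DMSO cells at 72 h, and 597, 677, 698 and 737 in combination cells and 735, 822 and 797 in DMSO cells at 24 h. The 24 h groups overlapped at their edges and the 72 h groups did not overlap. The difference was -1.27 ± 0.11 (adjusted p = 1.21e-07) and came from the treated level, which fell by 1.27, so Stard4 was lower at 72 h with Insig1. Insig2, the paralogue of Insig1 (0.77), and Erlin2, a membrane protein of the endoplasmic reticulum (0.74), were higher.

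Fatty acid genes followed in part. Among genes of fatty acid synthesis and desaturation, 9 of 21 were lower (42.9%) and 4 higher (19%), the higher share near that of all genes, with a median of -0.19. The desaturases led: Fads2 had a difference of -2.43 ± 0.16, Scd2 of -1.61 ± 0.10 and Fads1 of -1.27. Scd2 had 6135, 5923, 5578 and 5190 in combination cells and 16290, 14480 and 17060 in DMSO cells at 72 h, and 19620, 21660, 20960 and 20750 in combination cells and 18500, 19000 and 19480 in DMSO cells at 24 h. Combination cells held the highest Scd2 values of the 4 groups at 24 h, where the effect was not called, and the lowest at 72 h. Me1, the malic enzyme that supplies NADPH (0.58), and Dgat1, which completes triglycerides (0.50), were higher. Of 16 genes of acyl-CoA synthesis and fatty acid transport, 11 passed the filter, 5 lower (45.5%) and 2 higher (18.2%). Fabp5, a fatty acid carrier, had the lowest difference among the named ones (-2.48 ± 0.27), while Acsl4 was at -0.50 and Acsl5 at -0.26. Acsl1 (0.74 ± 0.10) and the transporter Slc27a4 (0.57) were called the other way, so members of the Acsl family moved in both directions.

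Direct PPARG targets showed no common direction. Of 30, 17 passed the filter, 4 called higher (23.5%) and 5 lower (29.4%), with a median of -0.05. Cpt1a, which brings fatty acids into mitochondria, had 2649-3057 in combination cells and 621-682 in DMSO cells at 72 h, and 1702-2024 in combination cells and 833-926 in DMSO cells at 24 h, and its effect was 1.02 ± 0.10 higher at 72 h (adjusted p = 5.56e-07). For Angptl4, a secreted lipase inhibitor, the effect was 0.79 lower at 72 h (adjusted p = 0.00761). That difference came with a DMSO level that rose by 0.99, while the change of 0.20 in the combination level was not called. The effect was 0.46 at 24 h and -0.33 at 72 h, where it was not called (limma adjusted p = 0.0554). An earlier experiment of the series had an Angptl4 effect of 2.86 at 72 h, given below.

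Among Id and BMP genes 22 of 27 passed the filter, and 11 were called higher and 1 lower, with a median of 0.47. Beside Id2 and Atoh8, Smad6, an inhibitor of BMP signalling, had 178, 192, 189 and 235 in combination cells and 41.5, 56.1 and 48.3 in DMSO cells at 72 h. At 24 h it had 79.2, 91.8, 84.0 and 105 in combination cells and 90.7, 103 and 77.0 in DMSO cells, which overlapped. Its levels moved apart, with a rise of 1.13 in combination cells and a DMSO level that fell by 0.88, for a difference of 2.01 ± 0.20 (adjusted p = 5.74e-07). Id3 had a difference of 1.53 ± 0.16 (adjusted p = 1.89e-06). Fst, follistatin, which binds activin, was the member called lower. Its treated libraries at 72 h held at most 2 reads, so its fitted difference depends on the 1 added to each value and no fold is given. Over the 12 called members, the combination level alone moved for 7 and both levels for 5. Fst was counted among the 7, with a DMSO rise of 0.94 that was not called (limma adjusted p = 0.107).

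ERK pathway genes were below controls by the median at 24 h and further below at 72 h. Of 34 genes 31 passed, 17 called lower and 3 higher, with a median difference of -1.04. Their median effect was -3.02 at 72 h and -1.60 at 24 h. Dusp4, an ERK phosphatase, had 35.1, 29.7, 25.9 and 28.4 in combination cells and 690, 626 and 687 in DMSO cells at 72 h, and 101, 113, 133 and 118 in combination cells and 583, 568 and 574 in DMSO cells at 24 h. Treated libraries were below controls at both times. Its difference was -2.15 ± 0.15 (adjusted p = 1.05e-08), and the combination level fell by 1.93. The pathway inhibitors Spred2 (-1.65) and Spred1 (-1.45) and the receptor Epha2 (-1.04) followed. Dusp10 (1.30 ± 0.14) and Dusp1 (0.90), phosphatases that act mainly on the stress kinases p38 and JNK, were higher. The combination level alone moved for 12 of the 20 called members, the DMSO level alone for 1 and both for 7.

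Cell cycle genes had lower effects at 72 h. All 26 tested genes of mitosis were called lower, with a median difference of -1.56, and for all 26 the combination level fell between the times while no move of the DMSO level was called. Their median effect was -3.31 at 72 h and -1.73 at 24 h. The mean log2 level of the list was 7.36-7.60 in combination cells and 10.74-10.77 in DMSO cells at 72 h, and 8.99-9.02 in combination cells and 10.76-10.77 in DMSO cells at 24 h. Bub1b, the spindle checkpoint kinase BUBR1, had 98.6, 95.6, 87.8 and 86.7 in combination cells and 1320, 1275 and 1364 in DMSO cells at 72 h, and 411, 401, 416 and 346 in combination cells and 1434, 1427 and 1519 in DMSO cells at 24 h. Its difference was -1.93 ± 0.10 (adjusted p = 7.72e-10). Mki67, the proliferation marker (-1.98 ± 0.13), Ccna2, cyclin A2 (-1.83 ± 0.10), and Kif11, a spindle motor (-1.59), were similar.

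Genes of DNA replication and S phase had 26 of 30 called lower and 1 higher, with a median of -0.90. Their effect was already -1.76 at 24 h, and -2.67 at 72 h, by the median. E2f2, a transcription factor of S phase entry, had 49.0, 55.0, 43.2 and 45.7 in combination cells and 312, 319 and 322 in DMSO cells at 72 h, and 164, 149, 150 and 143 in combination cells and 312, 297 and 321 in DMSO cells at 24 h. The control groups overlapped and the treated groups did not, and the difference was -1.67 ± 0.13 (adjusted p = 4.13e-08). Uhrf1, which maintains DNA methylation, also had -1.67 ± 0.13, and Mcm3, a helicase subunit, -1.19 ± 0.11. Gins2, another replication factor, was the member called higher (0.61). Among D cyclins and CDK inhibitors 3 of 15 were lower (20%) and 2 higher (13.3%), near the 17.1% and 17.0% of all genes. Ccnd1, cyclin D1, had a difference of -1.47 ± 0.14, with 331-508 in combination cells and 7329-7481 in DMSO cells at 72 h. Cdkn1c, the inhibitor p57, had 4.46, 4.40, 5.76 and 3.15 in combination cells and 36.8, 33.1 and 30.9 in DMSO cells at 72 h, and 45.8, 37.2, 54.6 and 52.4 in combination cells and 21.5, 26.4 and 31.9 in DMSO cells at 24 h. Its effect was called negative at 72 h (-2.69 ± 0.24) and called positive at 24 h (0.82 ± 0.24). In the treated libraries at 72 h, 3 reads correspond to values of 1.67, 3.30, 4.32 and 4.73. Cdkn1c was near these, so the size of its 72 h effect depends in part on the 1 added to each value.

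1 promoter from each of the 2 lists is shown, each with a different motif. In E2f2 (chr4:136172024-136172323, plus strand) capitals mark TTTGGCGC, an E2F element, at position 290, and in Bub1b (chr2:118597961-118598260, plus strand) they mark TTTGAA, the cell cycle homology region, at position 291.
E2f2: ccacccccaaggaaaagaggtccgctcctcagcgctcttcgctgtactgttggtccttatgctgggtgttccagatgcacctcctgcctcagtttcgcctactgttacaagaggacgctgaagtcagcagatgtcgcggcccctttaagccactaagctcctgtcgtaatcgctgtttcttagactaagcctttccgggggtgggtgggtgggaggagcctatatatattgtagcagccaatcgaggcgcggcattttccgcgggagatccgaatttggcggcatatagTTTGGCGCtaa
Bub1b: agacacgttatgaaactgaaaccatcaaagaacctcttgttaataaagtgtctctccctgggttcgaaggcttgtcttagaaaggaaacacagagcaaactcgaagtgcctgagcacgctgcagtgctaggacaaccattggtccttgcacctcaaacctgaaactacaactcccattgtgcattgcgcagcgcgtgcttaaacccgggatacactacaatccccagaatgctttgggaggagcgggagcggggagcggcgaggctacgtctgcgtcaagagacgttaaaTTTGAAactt
TTTGAA was found in 15 of 21 promoters of called mitosis genes (71.4%) and 4 of 26 of called S phase genes (15.4%), against 17.9% of all 32817. TTTGGCGC was found in 6 of the 26 S phase promoters (23.1%) and 0 of the 21 mitosis promoters, against 0.515% of all, so most S phase windows lacked the letters shown for E2f2. The ETS core, CCGGAA, was in 11 of the 26 S phase promoters (42.3%) and 8 of the 21 mitosis promoters (38.1%), against 14.9% of all. The spellings TTTGAA and TTTGGCGC were chosen after the values were seen, and a match is a description of the letters, not of binding. The search was planned for the S phase list, and the mitosis, cholesterol and lysosomal lists were added after values were seen. The 32817 promoters were not limited to genes tested here, so the shares do not set the lists against expressed genes alone.

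Interferon response genes had higher effects at 72 h, often with a move of the control level. Of 34 tested, 17 were called higher and 1 lower, with a median difference of 0.52. Among these 18 the DMSO level alone moved for 7, both levels for 7, the combination level alone for 3 and neither for 1. The DMSO level fell between the times for 21 members and rose for 2, while the combination level rose for 10 and fell for 8. Of all 13640 genes tested, the DMSO level fell for 1887, and the combination level rose for 2927 and fell for 3230. The falls of the DMSO level thus stood out in this list, and the moves of the combination level were nearer to those of all genes. Oasl2, an interferon-induced member of the 2′-5′-oligoadenylate synthetase family, had 593, 643, 569 and 470 in combination cells and 114, 108 and 119 in DMSO cells at 72 h, and 622, 593, 659 and 538 in combination cells and 243, 255 and 231 in DMSO cells at 24 h. Treated libraries of the 2 times overlapped. The DMSO level fell by 1.09 and the difference was 1.00 ± 0.13 (adjusted p = 1.87e-05). The MHC class I genes of the list behaved otherwise, with moves in the treated level alone. B2m, the light chain of MHC class I, had 12390, 12290, 10630 and 11070 in combination cells and 2468, 2559 and 1981 in DMSO cells at 72 h, and 3923, 3538, 3389 and 3820 in combination cells and 2157, 2387 and 1860 in DMSO cells at 24 h. Its control groups overlapped, and its difference was 1.53 ± 0.14 (adjusted p = 1.78e-07). The heavy chain genes H2-K1 (1.25 ± 0.10) and H2-D1 (1.17 ± 0.09) moved the same way, though reads of such near-identical genes may be split between them. Cxcl10, an interferon-induced chemokine, was the member called lower (-1.12 ± 0.35, adjusted p = 0.0199). The call was lost without DMSO replicate 3 at 72 h (adjusted p = 0.0577) or without DMSO replicate 3 at 24 h (0.0503), in a range of 0.0125 to 0.0577 over the alternatives.

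Cytokine genes ran the other way. Of 28, 25 passed, 12 called lower and 1 higher, with a median of -0.70, and among these 13 the DMSO level alone moved for 5, both levels for 5 and the combination level alone for 3. The DMSO level rose for 16 members and fell for 1, with a median change of 1.13, while the median change of the combination level was 0.09. Ccl2, a chemokine that attracts monocytes, had 800, 746, 574 and 605 in combination cells and 1423, 1708 and 1379 in DMSO cells at 72 h, and 635, 600, 631 and 700 in combination cells and 292, 297 and 258 in DMSO cells at 24 h. Treated libraries of the 2 times overlapped, and the controls stood below them at 24 h and above them at 72 h. The effect was -1.15 ± 0.11 at 72 h and 1.18 ± 0.11 at 24 h, a difference of -2.33 ± 0.15 (adjusted p = 7.21e-09), and the DMSO level rose by 2.40. Lif, a cytokine of the interleukin-6 family, had a difference of -1.53 ± 0.14, with a DMSO rise of 1.20. Nfkbiz, a regulator of NF-kB, moved in the treated level (difference -0.70 ± 0.08). Il1a had 1.67, 2.20, 1.44 and 3.15 in combination cells and 523, 513 and 540 in DMSO cells at 72 h, and 9.43, 6.65, 5.46 and 6.56 in combination cells and 157, 185 and 158 in DMSO cells at 24 h. The treated libraries at 72 h held at most 3 reads of it, so its fitted difference depends on the added 1. Csf1, a growth factor of macrophages, was the member called higher (0.78 ± 0.10).

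**Figure D4:**
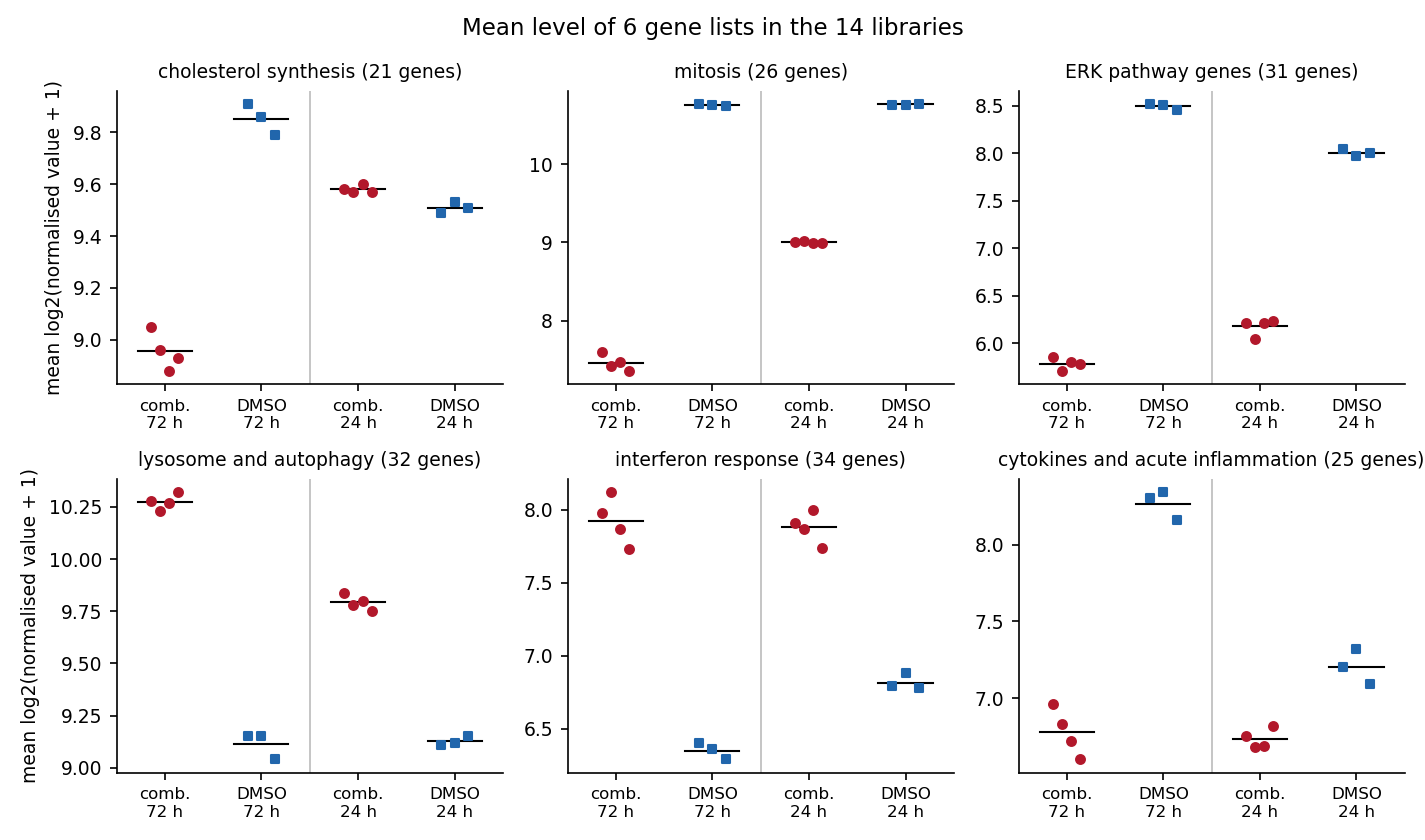
Mean log2 level of the tested members of 6 gene lists in each of the 14 libraries (vertical axis), by group, with a line at the group mean and a separate scale per list. The mitosis list is lowest in combination cells at 72 h, at 7.36-7.60, and the cytokine list is highest in DMSO cells at 72 h.

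Lysosomal and autophagy genes rose in effect: 22 of 32 were called higher and 0 lower, with a median difference of 0.47. The combination level rose for 24 of the 32. Ctsd, the protease cathepsin D, had 10460, 9844, 9985 and 10810 in combination cells and 3825, 3896 and 3293 in DMSO cells at 72 h, and 4937, 4327, 4383 and 4223 in combination cells and 3337, 3258 and 3383 in DMSO cells at 24 h. Treated cells at 72 h stood well above the other 3 groups, and the difference was 1.06 ± 0.10 (adjusted p = 2.81e-07). Psap, a precursor of lipid-degrading activators (1.01 ± 0.08), Lamp2, a lysosomal membrane protein (0.92 ± 0.08), and Ctsb, cathepsin B (0.90 ± 0.09), were similar. Cd68, named above among immune markers, is itself a lysosomal protein. The Ctsd promoter (chr7:142387778-142388077, minus strand) is shown with CACGTG, the E-box that factors of the MiT/TFE family recognise, in capitals at positions 6 and 153.
Ctsd: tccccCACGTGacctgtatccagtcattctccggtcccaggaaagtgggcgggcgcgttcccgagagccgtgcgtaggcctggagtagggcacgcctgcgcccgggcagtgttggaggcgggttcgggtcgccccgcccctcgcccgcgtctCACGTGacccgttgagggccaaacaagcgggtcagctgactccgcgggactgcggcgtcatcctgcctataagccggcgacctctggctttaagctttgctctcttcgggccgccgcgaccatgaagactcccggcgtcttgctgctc
The E-box was in 8 of 20 promoters of called lysosomal genes (40%), against 7.15% of all 32817 promoters. Also searched were a GC-rich SMAD element (25% of these 20 against 11.9% of all), AP-1 (10% against 7.81%) and a forkhead element (10% against 13.4%). The SMAD element was in 23.8% of the mitosis, 14.3% of the cholesterol and 11.5% of the S phase promoters. None of the 5 motif spellings given here contains another.

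Glycolysis and hypoxia genes moved the opposite way to the lysosomal ones, with 18 of 30 called lower and 2 higher and a median of -0.49. The combination level fell for 24 of the 30. Hk2, hexokinase 2, had 130, 135, 154 and 159 in combination cells and 736, 734 and 851 in DMSO cells at 72 h, and 281, 319, 288 and 306 in combination cells and 655, 664 and 752 in DMSO cells at 24 h. The treated level fell by 1.04, and the difference was -1.21 ± 0.12 (adjusted p = 7.95e-07). The glucose transporter Slc2a1 (-0.86 ± 0.11), lactate dehydrogenase Ldha (-0.78 ± 0.12) and phosphofructokinase Pfkl (-0.76) followed.

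Stress lists were mixed. ATF4 and serine synthesis genes had 7 of 28 higher and 7 lower (25% each). Psat1, an enzyme of serine synthesis, was lower (-1.50 ± 0.10), with 384-437 in combination cells and 3413-3706 in DMSO cells at 72 h. Atf3, a stress-induced factor, was higher (1.37 ± 0.14), and so was Slc3a2, the heavy chain of an amino acid exchanger, whose effect was 0.50 at 72 h and -0.40 at 24 h. For the unfolded protein response 7 of 20 were higher (35%) and 3 lower (15%), among the higher ones Sel1l, which helps clear misfolded proteins (0.86 ± 0.11). Of 20 p53 targets 19 passed the filter, 7 higher (36.8%) and 3 lower (15.8%). In both lists the lower share was near that of all genes. Pmaip1, which encodes the pro-death protein NOXA, had 4090, 3274, 3376 and 3280 in combination cells and 388, 362 and 383 in DMSO cells at 72 h, and 932, 1046, 1012 and 1055 in combination cells and 248, 300 and 255 in DMSO cells at 24 h. Its treated libraries were above its controls at both times, and its difference was 1.29 ± 0.12 (adjusted p = 2.27e-07).

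Genes that mark urothelial layers did not share a direction. Of 26 luminal genes 20 passed the filter, 6 higher (30%) and 4 lower (20%), and of 20 basal genes 16 passed, 7 higher (43.8%) and 3 lower (18.8%). Foxa1, a luminal factor, had 2170, 2308, 2066 and 2175 in combination cells and 938, 911 and 962 in DMSO cells at 72 h, and 2564, 2739, 2735 and 2648 in combination cells and 1954, 1840 and 1790 in DMSO cells at 24 h. Both levels were lower at 72 h than at 24 h, and the DMSO level fell further, so the difference was 0.70 ± 0.08 (adjusted p = 3.01e-06) without a rise in treated cells. Krt19, a luminal keratin, had the same form, with a combination level that fell by 0.42, a DMSO level that fell by 1.30 and a difference of 0.88. Of the basal genes, the keratin Krt17 (1.83 ± 0.24) and the laminin chain Lamb3 (0.46 ± 0.09) were higher, while P-cadherin, Cdh3 (-1.18 ± 0.18), and Cd44 (-0.71 ± 0.10) were lower. Of 30 squamous genes 15 passed, 4 higher (26.7%) and 3 lower (20%). Krt4, a keratin of stratified mucosa, had 17.3, 16.5, 14.4 and 7.88 in combination cells and 49.4, 52.6 and 48.3 in DMSO cells at 72 h, and 124, 81.1, 88.4 and 96.7 in combination cells and 55.3, 76.6 and 64.6 in DMSO cells at 24 h. Its effect was called positive at 24 h (0.56) and negative at 72 h (-1.82).

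Genes of matrix and signalling completed the lists. Of 22 TGFB and YAP response genes 19 passed the filter, 8 higher (42.1%) and 4 lower (21.1%). Thbs1, a matrix glycoprotein, had a difference of 1.30 ± 0.14, and the TGFB target Pmepa1 of 1.03, against -0.96 for Ankrd1 and -0.81 for the receptor Axl. Of 16 Notch pathway genes 14 passed, 6 lower (42.9%) and 0 higher, led by Nrarp, a feedback inhibitor (-1.05 ± 0.15). Among epithelial-mesenchymal genes and matrix proteases, 21 of 24 passed, 6 higher (28.6%) and 4 lower (19%). Timp2, a protease inhibitor, had 23460, 23550, 22430 and 22990 in combination cells and 4170, 4169 and 3930 in DMSO cells at 72 h, and 8993, 9618, 9290 and 9708 in combination cells and 5713, 5316 and 5458 in DMSO cells at 24 h, for a difference of 1.72 ± 0.08 (adjusted p = 1.98e-10). Timp3, of the same family, was called the other way (-1.31 ± 0.30), as was Spp1, osteopontin (-2.0 ± 0.17).

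**Figure D5:**
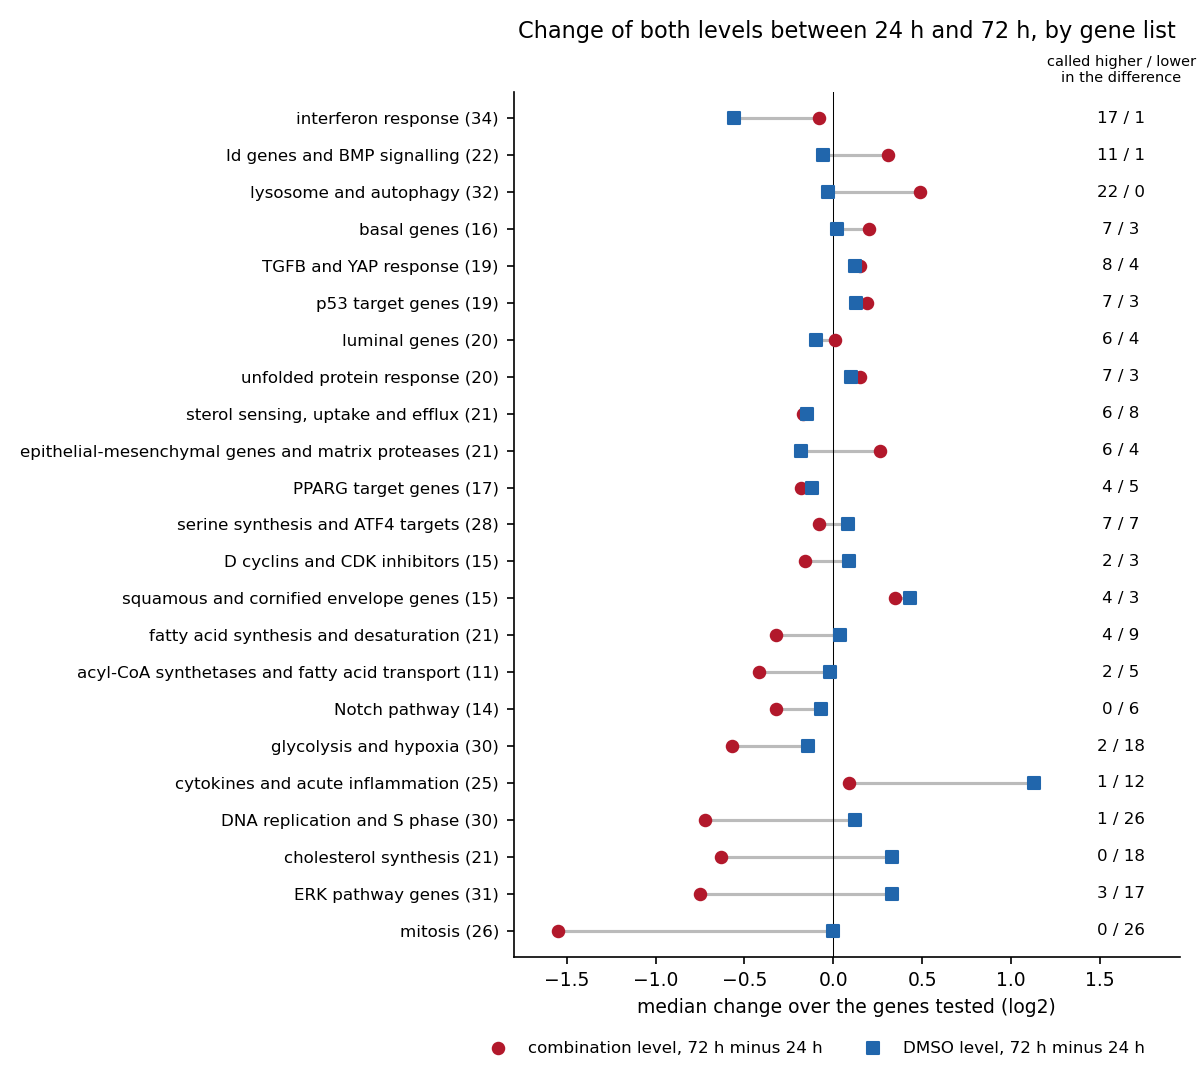
Median change of each gene list in log2 units (horizontal axis), with a red circle for the combination level and a blue square for the DMSO level, each at 72 h minus 24 h. Numbers of tested genes stand in parentheses and numbers called higher and lower in the difference of effects at the right. The mitosis list has a combination median of -1.55 and a DMSO median of 0.00, and the cytokine list has a combination median of 0.09 and a DMSO median of 1.13.

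The most extreme differences among called genes with a mean value of at least 50 were larger downward than upward. Fgfbp1, a carrier of fibroblast growth factors, had 26.7, 16.5, 11.5 and 20.5 in combination cells and 788, 817 and 694 in DMSO cells at 72 h, and 224, 190, 184 and 200 in combination cells and 429, 455 and 394 in DMSO cells at 24 h. Treated cells were below controls at both times, and the difference was -4.24 ± 0.26 (adjusted p = 1.01e-08). Lipg, endothelial lipase, followed at -4.02 ± 0.35, and Emp1, an epithelial membrane protein, at -3.99 ± 0.34. Prl2c2 (-3.78), a prolactin-family gene with near-identical copies, and Ccdc7b (-3.19), which also has a close paralogue, are uncertain because reads may be split between copies. Ppbp, a chemokine, was at -3.75, Fut9, a fucosyltransferase, at -3.20 and Col8a1, a collagen chain, at -2.99. In combination cells at 72 h, Ccdc7b had 3.34, 1.10, 5.76 and 1.58, at most 6 reads, and Fut9 had 8.35, 4.40, 5.76 and 6.30. Both were near the values of 3 reads, so the sizes of their differences depend in part on the 1 added to each value. Il24, a cytokine, had 1.67, 0, 0 and 0 in combination cells and 198, 215 and 171 in DMSO cells at 72 h, and 8.49, 3.99, 3.27 and 4.92 in combination cells and 75.3, 67.3 and 77.9 in DMSO cells at 24 h. The treated libraries at 72 h held at most 3 reads, so the size of its difference depends on the added 1.

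On the upper end, Tmem140, a transmembrane protein, had 2087, 2031, 2292 and 2471 in combination cells and 70.5, 102 and 81.2 in DMSO cells at 72 h, and 519, 511, 553 and 515 in combination cells and 151, 174 and 185 in DMSO cells at 24 h. Its levels moved apart, with a rise of 2.08 in combination cells and a DMSO level that fell by 1.01, and its difference was 3.09 ± 0.15 (adjusted p = 2.09e-10). Parm1, a mucin-like membrane protein, had 2.64 ± 0.13, and Serpinb8, a protease inhibitor, 2.44 ± 0.28. Synpo, an actin-binding protein, had 2.43 ± 0.13, P4ha3, a collagen prolyl hydroxylase, 2.25 and Mmp15, a membrane-bound metalloproteinase, 2.02 ± 0.13. Ffar4, a receptor for long-chain fatty acids, had 94.7, 85.7, 77.7 and 67.8 in combination cells and 23.5, 16.6 and 8.70 in DMSO cells at 72 h, and 86.3, 64.5, 72.0 and 85.2 in combination cells and 69.2, 63.4 and 71.7 in DMSO cells at 24 h. As for Dhrs3, the control level moved, and it fell by 2.10 for a difference of 2.18 ± 0.33 (adjusted p = 5.4e-05).

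The 117 genes with called effects of opposite sign included Ccl2 and Hmgcs1. Rassf3, a Ras association domain protein, had 689, 671, 684 and 730 in combination cells and 298, 323 and 341 in DMSO cells at 72 h, and 347, 359, 319 and 372 in combination cells and 435, 440 and 462 in DMSO cells at 24 h. Treated cells were above controls at 72 h and below them at 24 h, without overlap at either time, and the difference was 1.46 ± 0.10 (adjusted p = 6.26e-09). Ecm1, a secreted matrix protein, reversed likewise, with 0.70 at 72 h and -0.71 at 24 h. Msmo1, a sterol oxidase (-0.83 at 72 h and 0.36 at 24 h), and Plk2, a stress-responsive kinase (-0.99 and 0.24 at the same times), reversed in the other direction.

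Libraries treated with ATRA, all-trans retinoic acid, at both times gave a second view of culture time without the combination. They lie on the same scale, since the DMSO values in their table were the same, but 2 of the 11 stood apart. As deviations from the mean of the 11, ATRA libraries at 24 h correlated weakly within their group, such as replicate 1 at -0.09 to 0.19 and replicate 4 at -0.09 to 0.13. Replicate 6 at 24 h was little lower, at -0.09 to 0.06. With libraries at 72 h, replicate 3 at 24 h reached at most 0.27. ATRA replicate 1 at 72 h correlated at -0.50 to -0.41 with the other libraries of its group and at 0.37 with ATRA replicate 6 at 24 h. The 2 were alike and unlike either group in some genes, chosen after their values were seen: Angptl4 had 905.8 in the library labelled ATRA replicate 1 at 72 h and 244.2-300.0 in the other 4, and 998.2 in the library labelled ATRA replicate 6 at 24 h and 140.6-151.7 in the other 5. The values with all 11 libraries therefore rest on 2 labels in doubt, and results are given with all 11 and without these 2. Among the 888 genes in which the DMSO level alone moved, ATRA cells moved in the direction of DMSO cells for 871 (98.1%), and for 873 (98.3%) without the 2. The share over all tested genes was 76.9% with all 11 and 78.0% without the 2, and among genes in which the combination level alone moved it was 73.8% and 75.7%. Among genes in which both levels moved it was 95.8% and 96.5%. These classes were picked by whether the DMSO move was called, with a median size of 0.44 in DMSO-alone and 0.13 in combination-alone genes. A called move has a surer sign, so the gap between these shares is in part set by that choice. The median size of the ATRA change in the DMSO-alone genes was 0.34, or 0.44 without the 2, beside 0.44 in DMSO cells. Dhrs3 had a mean log2 level of 9.79 ± 0.59 at 72 h (SD, n = 5) and 10.80 ± 0.06 at 24 h (SD, n = 6) in ATRA cells, a change of -1.01, or -1.25 without the 2. For Ccl2 the ATRA change was 1.39, or 1.74 without them, and for Insig1 0.42, or 0.50. ATRA is itself a treatment, so its change with time is a description and was not tested.

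An earlier experiment of the series gave 5 combination and 5 DMSO libraries of these cells at 72 h, in a table normalised apart, so the 2 experiments were set side by side and their difference was not tested. Of the 4571 called genes found there, 4092 (89.5%) had the sign of the 72 h effect described here, against 80.3% of all 13355 shared genes. Called genes were picked on a difference that includes the 72 h effect, and 92.9% of them had the larger effect at 72 h. A larger effect has a surer sign, so the gap between these shares is in part set by that choice. The earlier experiment held 72 h libraries alone, so its signs do not bear on the change from 24 h. Id2 had 2012, 2015, 1943, 1953 and 1894 in combination cells and 491, 478, 501, 507 and 460 in DMSO cells, and its effect there was 2.01. For Atoh8 the effect was 2.09 and for Tuft1 2.16, on the side of the 72 h effects given above. For Acsl3, Insig1 and Hmgcs1 the earlier effect was smaller or of the other sign. Insig1 had an effect of -0.16 there beside -1.50 here. Acsl3 had 4929, 4619, 4844, 4582 and 4452 in combination cells and 5924, 5176, 5725, 4445 and 5118 in DMSO cells, groups that overlapped, with an effect of -0.17 there. Hmgcs1 had 14060, 14140, 13480, 13900 and 14050 in combination cells and 10620, 10990, 11640, 10450 and 10180 in DMSO cells, an effect of 0.37 there beside -1.36 here. Of the 21 cholesterol genes 17 were above 0 in the earlier experiment, with a median effect of 0.33, beside -0.86 at 72 h here. Median effects there were -1.50 for mitosis, -1.11 for S phase, -1.89 for ERK pathway and 0.02 for cytokine genes. Here they were -3.31, -2.67, -3.02 and -1.24 at 72 h, and -1.73, -1.76, -1.60 and -0.26 at 24 h. For interferon response genes the earlier median was 1.84, beside 1.80 at 72 h and 1.09 at 24 h here. For lysosomal genes it was 0.78, beside 1.25 and 0.72. Angptl4 had 2068-2203 in combination cells and 243-317 in DMSO cells, an effect of 2.86 there beside -0.33 here (not called). Among further named genes with the other sign there, picked after their values were seen, were Ppbp (0.61 there, -4.94 here) and Ffar4 (-0.90, 2.35). Krt4 (3.16, -1.82) and Cdh3 (0.24, -2.28) were others. Smad6 (0.16, 2.01) and Scd2 (-0.04, -1.48) had smaller effects there.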

How the data were processed

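RNA of the 14 libraries (4 combination and 3 DMSO at each of 72 h and 24 h) was sequenced as poly-A libraries, per the labels' protocols. The authors' deposited signal is gene-level counts divided by size factors, one value per gene and library for 35360 genes. The submitters' processing notes name bcl2fastq 2.19, kallisto 0.44.0, DESeq2, GRCm38.p6 and mm10, with no order. Whole reads were recovered for 100.0% of values (within 0.1 of a whole number), which gave the depths. Because the deposited values are normalised, log2(value + 1) was tested with limma 3.58.1 (trend, robust; R 4.3.3), with Benjamini-Hochberg adjustment over all 13640 genes with a value of at least 10 in at least 3 libraries. One mean per group was fitted, and contrasts gave the difference of effects, each effect and each level's move.

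The markers, gene lists and members were chosen with earlier results of these data known. Named genes were the 5 markers, the 10 largest positive and 10 largest negative called differences where the gene averaged 50 or more and was not a predicted one, up to 4 called genes per list in the list's main direction and 2 in the other, by adjusted p, up to 6 with opposite effects, and up to 4 per class of move, 153 in all, and a few others are not reported here. A few other list members are named too, chosen after their values were seen. In each list only members that passed the filter on low values were counted. Alternatives were edgeR 4.0.16 (quasi-likelihood, TMM) and DESeq2 1.42.0 on recovered reads, added values of 0.5 and 4, no filter, a minimum of 50, quantile normalisation, and each of the 14 libraries left out. No 2 libraries held the same values (among genes above 100 in both, at most 1.20% of values were equal). The deposited values of the ATRA and earlier-experiment tables, also size-factor-normalised signal, were used as described, and 26 date-named entries of the latter table were left out. Gene positions are from GENCODE on GRCm38, and promoters from RefSeq on GRCm38.p6. The fit was tested on simulated data.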

Additional observations from a re-analysis of the deposited data

Results flagged for a closer look

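The combination effect differed between 72 h and 24 h, by a test of the difference itself, for 4654 genes. The 6 genes named for effects of opposite sign at the 2 times, both called, were Rassf3, with a difference of 1.46, Ccl2 with -2.33, Hmgcs1 with -1.65, Ecm1 with 1.41, Msmo1 with -1.20 and Plk2 with -1.24. The list genes Sbsn, Krt4, Cdkn1c, Slc3a2, Slc6a9, Ankrd1 and Nfkbiz also had called effects of opposite sign.

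In groups of 4 libraries, 1 library stood far from the other 3 in 14 of 306 gene and group pairs by Dixon's test, and chance flags about 1 in 20 groups. In combination cells at 72 h these were, as log2 levels, Il24 in replicate 1 (1.42), P4ha3 in replicate 3 (6.30), Serpinb8 in replicate 3 (8.55), Cd24a in replicate 1 (12.46), Uhrf1 in replicate 4 (6.04), Pmaip1 in replicate 1 (12) and Atf6 in replicate 1 (9.99). In combination cells at 24 h all were in replicate 1, namely Fut9 (5.63), Idi1 (10.21), Acsl4 (10.18), Cd44 (10.24), Mki67 (10.85), Slc3a2 (10.53) and Ldha (12.94).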

How the results depend on the processing

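The count of genes whose effect differed between times was 4654, and 4734 with edgeR, the highest of the alternatives. With 1 library left out at a time it lay between 3995, without DMSO replicate 1 at 72 h, and 4665. Each alternative also called between 84.7% and 99.5% of the 4654 genes, 0 of them with the other sign. Quantile normalisation gave 2271 higher and 2118 lower. No value of a named gene reversed under any alternative run. Most named genes were picked from the same fit for a large difference or a low adjusted p, so reversals were unlikely from the start. Of the values of named genes, 3170 kept direction and side of the threshold and 39 lost their call, for Cstb, P4ha1, Cd68, Gdf15, Manf and Cxcl10. The counts of genes by which level moved depend most on the libraries: the DMSO-alone class ranged over 625-960, the class with both moves over 713-1106, and genes with a moved DMSO level over 2341-3679. No paired analysis was possible because the replicate numbers were given in accession order and pair no libraries. Genes with 3 reads or fewer in a group have differences that the depth limits, as said of Il24, Il1a and Fst. Cdkn1c, Ccdc7b and Fut9 stood near that limit.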
